A study of Mus musculus with 24 samples.

Results

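The genes of insulin and insulin-like growth factor (IGF) signalling that sit at or next to the cell surface were followed over all 24 arrays of the series: the ligands Igf1 and Igf2, the receptors Insr, Igf1r and Igf2r, and the receptor substrates Irs1 and Irs2. Probes were assigned to these genes by the RefSeq accession that the array design gives each probe, and 12 of the 41174 non-control probes belonged to 6 of the 7 genes, out of 18539 gene symbols with a probe. No probe of the array mapped to Irs2, so Irs2 was not measured. The arrays carried RNA of sorted endothelial cells of male mice, from the aorta or from leg muscles (skeletal muscle). WT mice were C57BL/6 and KO mice carried a homozygous deletion of the galectin-3 gene Lgals3. From 8 weeks of age the mice of each strain ate either a high-fat diet (HFD, 60% of calories from fat) or chow (12%), in both cases for 8 weeks. This gave 8 groups of 3 arrays, with 1 array of each group in each of 3 trials, and each array held cells pooled from several animals. Live CD105+/CD45- cells were taken as endothelium in every group.

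Insulin, IGF1 and IGF2 act through a pair of closely related receptor tyrosine kinases, the insulin receptor (Insr) and the IGF1 receptor (Igf1r), which can also form hybrids with each other. The active receptors phosphorylate docking proteins of the IRS family, which recruit PI3 kinase and so switch on AKT, while the adaptors SHC and GRB2 lead to RAS and ERK. The Igf2r product has no kinase: it is the cation-independent mannose 6-phosphate receptor, which sorts lysosomal enzymes and takes up IGF2 for degradation. In endothelial cells the IRS, PI3 kinase and AKT branch is known for activating endothelial nitric oxide synthase, and endothelial insulin receptors carry insulin across the vessel wall. IGF1 in the vessel wall and in muscle acts largely as a local growth factor, made by mesenchymal cells and macrophages besides the liver.

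The sequences just upstream of the annotated starts are shown for Igf1, the gene called higher on HFD, for Igf1r, whose second probe was called lower, and for Irs1, which like Igf1 was called higher in aorta. Each line holds the 250 bases before the start, from RefSeq (GRCm38.p6), 5′ to 3′ on the gene's strand. The windows were searched on both strands for the GC box (GGGCGG), the TATA box (TATAAA), the FOXO core (GTAAACA) and the E-box (CACGTG), and capitals mark the matches.
Igf1, chr10:87860861-87861110, plus strand: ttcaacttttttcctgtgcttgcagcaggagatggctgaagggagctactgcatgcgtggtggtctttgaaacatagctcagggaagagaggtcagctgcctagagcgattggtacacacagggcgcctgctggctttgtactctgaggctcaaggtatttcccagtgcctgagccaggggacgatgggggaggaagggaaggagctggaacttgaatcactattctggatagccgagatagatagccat
Igf1r, chr7:67952007-67952256, plus strand: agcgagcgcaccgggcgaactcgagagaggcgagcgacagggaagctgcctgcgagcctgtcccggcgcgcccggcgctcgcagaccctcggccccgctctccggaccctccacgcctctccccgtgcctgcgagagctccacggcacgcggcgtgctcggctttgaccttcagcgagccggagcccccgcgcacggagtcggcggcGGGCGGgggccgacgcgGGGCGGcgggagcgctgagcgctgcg
Irs1, chr1:82291440-82291689, minus strand: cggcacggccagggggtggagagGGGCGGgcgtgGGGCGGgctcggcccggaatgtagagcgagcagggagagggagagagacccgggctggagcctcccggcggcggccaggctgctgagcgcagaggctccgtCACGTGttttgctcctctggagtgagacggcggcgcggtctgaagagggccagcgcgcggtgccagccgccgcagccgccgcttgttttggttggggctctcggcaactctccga

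The Igf1 window held none of these letters and had a GC content of 52.8%. The Igf1r window held 2 GC boxes at a GC content of 77.6%, and the Irs1 window held 2 GC boxes and 1 E-box at 72.4%. Over all 32851 promoter windows of the same length, 32.7% held a GC box, 12.4% a TATA box, 3.17% the FOXO core and 6.02% the E-box. Such matches are letters in a window and describe no binding in these cells.

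All values below are log2 of the processed signal divided by the 75th percentile of the same array, so that 0 is the 75th percentile, and a difference of 1 is a doubling of the signal. The 75th percentile lay between 2390 and 5938 over the arrays. Of the 12 member probes, 9 were well above background on all 24 arrays, and none was saturated. The brightest probe of each of the 6 genes was among these 9 and was the same in aorta and muscle. A probe was called at an adjusted p under 0.05, from limma with Benjamini-Hochberg adjustment over all tested probes. Where groups are said not to overlap, the share of all tested probes that do the same was not counted. Such statements describe the values only.

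Before the members, the labels were checked on Lgals3 itself. Its only probe was well above background on all 24 arrays and was higher, not lower, on the array labelled KO in 11 of 12 pairs of one tissue, diet and trial, with a median difference of 1.30. Whether that probe lies in the deleted part is not given in the sources used here, so it checks nothing by itself. The strains were therefore also set apart at other probes. Each set of 4 arrays of one diet and trial was held out in turn, probes that differed between the strains were chosen on the other 20 arrays (8 to 45 of them), and the 4 arrays were placed on a scale with 0 at the WT mean and 1 at the KO mean. Held out in this way, the HFD arrays of trial 1 lay at 0.19 and 0.44 where labelled WT and at 0.29 and 0.42 where labelled KO. In the other 5 sets the 10 WT arrays lay between -0.26 and 0.25 and the 10 KO arrays at 0.88 or above. The strain of the 4 HFD arrays of trial 1 was thus not borne out by these probes. Diet differences over both tissues and strains are therefore also given without trial 1, since the chow arrays lose their partners, and tissue and strain differences without these 4 arrays. WT and KO below name the labelled strain.

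All 10 endothelial marker genes (among them Cdh5, Pecam1 and Tek) were well above background on all 24 arrays. Their summed signal was 143 to 442 times the 75th percentile in aorta and 414 to 678 times in muscle. Genes of other cell types were also detected. The 7 fibroblast markers were well above background on all 24 arrays, with a summed signal of 281 to 610 times the 75th percentile in aorta and 24.3 to 221 times in muscle. The fibroblast sum was above the endothelial sum on every aortic array on HFD and below it on every muscle array. In aorta on chow it went either way. The 10 skeletal muscle fibre markers summed to 31.4 to 197 times in muscle and 1.34 to 9.33 times in aorta. The 7 adipocyte markers summed to up to 261 times in aorta on chow and to 3.88 to 13.5 times in aorta on HFD, although leptin itself was well above background on 0 of 12 aortic and 1 of 12 muscle arrays. In such bulk RNA, fewer cells of a type and less RNA per cell cannot be told apart.

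**Figure D1:**
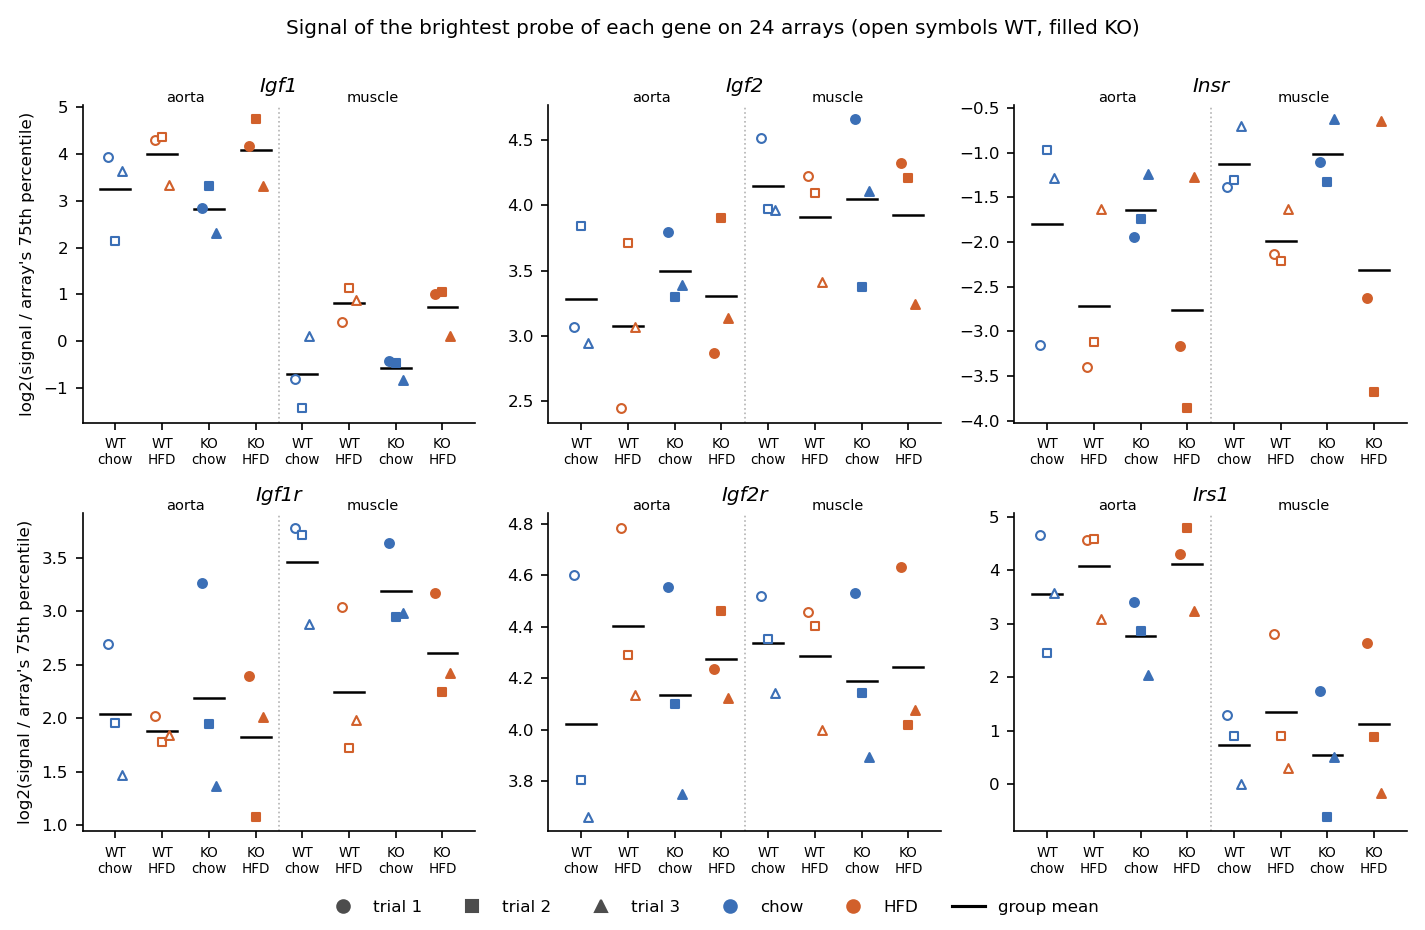
Signal of the brightest probe of each gene on the 24 arrays, on the vertical axis as log2 of signal over the array's 75th percentile, with the 8 groups on the horizontal axis. Each symbol is 1 array (shape for trial, colour for diet, open for WT and filled for KO) and each bar is the mean of 3. The Igf1 and Irs1 panels step down from aorta to muscle, the Igf1 symbols on HFD lie above those on chow in muscle, and the Insr symbols on HFD reach down to -3.86.

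Igf1, the growth factor, was the member with the clearest differences. It was higher in aorta than in muscle by 3.47 on the log2 scale, which is 11.1-fold, and higher on HFD than on chow by 1.21, or 2.31-fold, as the mean over both tissues and strains. In aorta of WT it read 3.94, 2.15 and 3.63 on chow in trials 1, 2 and 3, and 4.30, 4.37 and 3.35 on HFD. In aorta of KO it read 2.85, 3.31 and 2.31 on chow and 4.17, 4.75 and 3.31 on HFD. HFD was thus above chow in 5 of 6 aortic pairs, the exception being WT in trial 3, and the aortic diet groups overlapped. In muscle of WT it read -0.81, -1.43 and 0.12 on chow and 0.42, 1.13 and 0.87 on HFD. In muscle of KO it read -0.42, -0.48 and -0.83 on chow and 1.01, 1.06 and 0.12 on HFD. HFD was above chow in 6 of 6 muscle pairs, and the 6 muscle arrays on HFD did not overlap the 6 on chow, although the lowest HFD value and the highest chow value both rounded to 0.12. Every aortic array lay above every muscle array, and without the 4 HFD arrays of trial 1 the tissue difference was 3.41 (adjusted p = 6.53e-07).

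The mean difference between HFD and chow was 0.76 ± 1.30 in aorta of WT and 1.25 ± 0.22 in aorta of KO (SD, n = 3 pairs). It was 1.51 ± 0.93 in muscle of WT and 1.30 ± 0.32 in muscle of KO. Over the 4 settings of tissue and strain together the difference was 1.21 (SE 0.22, 95% confidence interval 0.71 to 1.70, adjusted p = 0.0282), and HFD was the higher in 11 of 12 pairs. The fit counted the 12 pairs as independent. Aortic and muscle arrays of one strain, diet and trial may come from the same animals, and correlated at 0.14 to 0.54 after subtraction of group means. Intervals, p-values and pair counts over both tissues, here and for the other members, can thus overstate the replication. Igf1 was the 1 of 6 members called in this comparison at its brightest probe, where 2.79% of all 27387 tested probes were called, 1.53% higher and 1.26% lower. None of the 6 members was called within a single setting, where at most 1 probe in all was called (0% of tested probes in aorta of WT, in aorta of KO and in muscle of WT, 0.00389% in muscle of KO). At an unadjusted p under 0.05 limma gave 0 members in aorta of WT, 2 in aorta of KO (Igf1 and Irs1), 2 in muscle of WT (Igf1 and Igf1r) and 2 in muscle of KO (Igf1 and Insr), where 5.77%, 11.3%, 12.1% and 8.49% of tested probes passed. Without trial 1 the difference over all settings was 1.27 (adjusted p = 0.212), without trial 2 it was 0.84 (0.139) and without trial 3 it was 1.51 (0.0569), so it was called only with all 3 trials. Over those fits the number of called probes in the whole table fell from 763 to 14, 0 and 206.

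The second Igf1 probe, a single dimmer spot where the first is the mean of 10, moved in the same direction and further. Its HFD signal was above chow in 12 of 12 pairs, by 0.98 to 3.15, with a mean of 1.98 (95% confidence interval 1.44 to 2.52, adjusted p = 0.00698). Without trial 1, 2 or 3 that mean was 1.81, 2.09 or 2.03 (adjusted p = 0.132, 0.0614 and 0.0545). The 6 HFD arrays lay above the 6 chow arrays without overlap in both tissues at this probe. It differed between aorta and muscle by 3.43, close to the 3.47 of the brighter probe (SE 0.27 and 0.25). Aorta was the higher in 12 of 12 sets of one strain, diet and trial. The tissues overlapped at this probe, with the lowest aortic array at -1.10 and the highest muscle array at -1.07.

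Both differences of Igf1 ran beside fibroblast markers. All 7 genes of that list were called higher in aorta, with a median of 2.55. All 7 were above 0 in HFD against chow, with a median of 0.77, and 2 of them were called: Lum, a collagen-binding proteoglycan, by 1.86 (adjusted p = 0.0130), and Pdgfra, a receptor that marks mesenchymal cells, by 1.05 (adjusted p = 0.0383). By pairs of one tissue, strain and trial the mean log2 signal of the list was higher on HFD in 12 of 12, by 0.13 to 1.34 in aorta and by 0.36 to 2.32 in muscle. In aorta this was not particular to fibroblast markers. The smooth muscle and pericyte lists were also higher on HFD in 6 of 6 aortic pairs, by 9.6e-05 to 0.62 and by 0.08 to 0.93. In muscle they were higher in 1 of 6 and 0 of 6 pairs. The macrophage and leukocyte list was above 0 in 8 of 9 tested genes in muscle of WT and 9 of 9 in muscle of KO, with medians of 2.11 and 1.17, and in 2 of 10 and 4 of 10 in aorta of WT and KO, with medians of -1.40 and -0.26. None of its genes was called within a setting. Over both tissues and strains 6 of 10 were above 0 and 1 was called, Ptprc (the gene of CD45, against which the cells were sorted) by 2.09 (adjusted p = 0.0173). The endothelial list was below 0 in HFD against chow in 10 of 10 genes with none called, with a median of -0.31. By pairs, its mean log2 signal differed by a median of -0.92 in aorta, lower on HFD in 5 of 6. In muscle that median was -0.04, lower in 4 of 6. The part of these other transcripts in the Igf1 result was not tested.

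**Figure D2:**
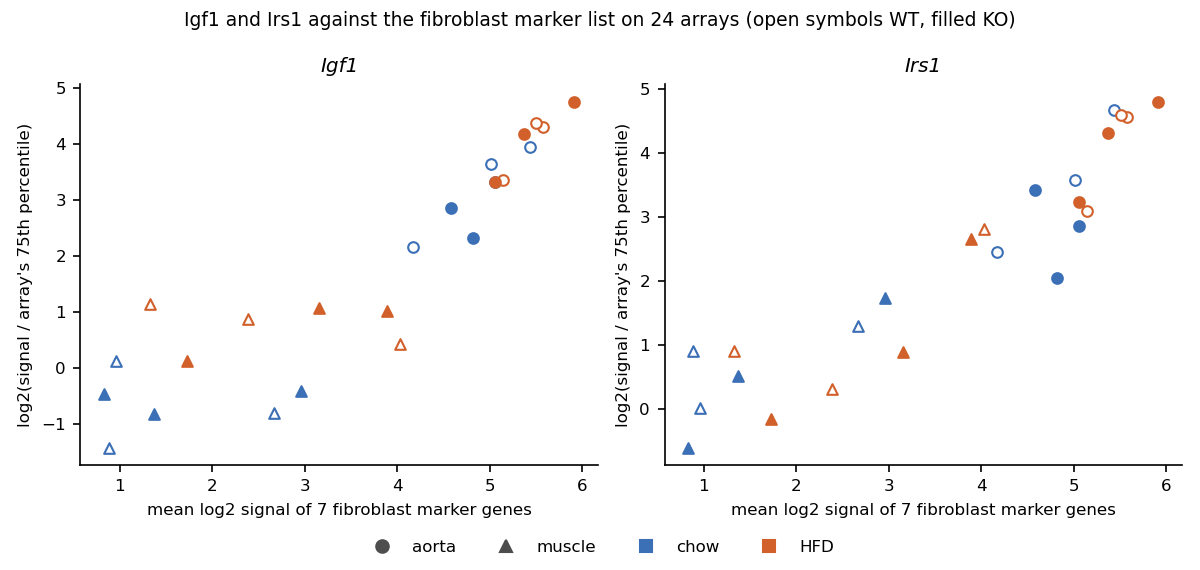
Igf1 (left) and Irs1 (right) on each of the 24 arrays, as log2 of signal over the array's 75th percentile, against the mean log2 signal of the 7 fibroblast markers of the same array. Circles are aorta and triangles muscle, blue is chow and orange HFD, open symbols are WT and filled KO. All aortic arrays lie at a list mean of 4.17 or more and all muscle arrays at 4.03 or less. Among the muscle arrays, Igf1 on HFD lies above Igf1 on chow, and within the 6 muscle pairs the list mean is higher on HFD in 6.

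Igf2, the fetal growth factor whose product also binds Igf1r and the A form of the insulin receptor, showed no diet difference past the threshold and a lower signal in aorta. At its brightest probe it ranged in aorta from 2.45 to 3.90 on HFD (median 3.10) and from 2.95 to 3.84 on chow (median 3.34). In muscle it ranged from 3.25 to 4.32 on HFD (median 4.15) and from 3.37 to 4.66 on chow (median 4.04). The diet groups overlapped in both tissues. HFD against chow over both tissues and strains gave -0.19 (95% confidence interval -0.59 to 0.21, adjusted p = 0.569), with HFD the lower in 8 of 12 pairs, and -0.0130 without trial 1 (adjusted p = 0.983). The second Igf2 probe gave -0.46 (95% confidence interval -0.74 to -0.18, adjusted p = 0.0703), lower in 11 of 12 pairs. Aorta was below muscle in 12 of 12 sets of one strain, diet and trial, by 0.72 in the mean (SE 0.21, adjusted p = 0.00832), and by 1.03 at the second probe (adjusted p = 0.00123). Without trial 1 the tissue difference at the brightest probe was -0.38 (adjusted p = 0.248), and without the 4 HFD arrays of trial 1 alone it was -0.50 (adjusted p = 0.0925).

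Insr, the insulin receptor, read lower on HFD in every pair, and the difference narrowly missed the threshold. In aorta of WT it read -3.15, -0.97 and -1.28 on chow in trials 1, 2 and 3, and -3.40, -3.12 and -1.63 on HFD. In aorta of KO it read -1.95, -1.74 and -1.24 on chow and -3.16, -3.86 and -1.27 on HFD. Trial 3 thus showed almost no difference in KO, and the WT chow array of trial 1, at -3.15, was within the range of the HFD arrays. In muscle of WT it read -1.38, -1.31 and -0.70 on chow and -2.13, -2.21 and -1.63 on HFD. In muscle of KO it read -1.10, -1.33 and -0.62 on chow and -2.62, -3.68 and -0.65 on HFD. The pairs differed by -0.02 to -2.35, with a median of -0.98 in trial 1, -2.14 in trial 2 and -0.19 in trial 3. Muscle of WT differed little between trials, with -0.75, -0.90 and -0.92.

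Over both tissues and strains Insr gave -1.05 (SE 0.25, 95% confidence interval -1.61 to -0.49, adjusted p = 0.0539), which is 2.07-fold lower on HFD. It was called with normexp background correction (-0.96, adjusted p = 0.0301), with quantile normalization (-1.02, adjusted p = 0.0491) and among the probes well above background on every array (adjusted p = 0.0248). Without trial 1 it was -1.11 (adjusted p = 0.256), without trial 2 it was -0.63 (0.325) and without trial 3 it was -1.41 (0.0613). In the same comparison the adipocyte list was below 0 in 6 of 6 tested genes, with 4 called and a median of -2.40, and the endothelial list in 10 of 10 with none called. Their part in the Insr difference was not tested. The mean difference was -0.92 ± 1.07 in aorta of WT, -1.12 ± 1.05 in aorta of KO, -0.86 ± 0.10 in muscle of WT and -1.30 ± 1.18 in muscle of KO (SD, n = 3 pairs). A second Insr probe was well above background on only 9 of 24 arrays and went the other way, with HFD above chow in 11 of 12 pairs by a median of 0.24. That probe was too dim to enter the test, so the fall rests on 1 probe with 1 spot per array. Between the tissues Insr was lower in aorta by 0.62 (95% confidence interval -1.37 to 0.14, adjusted p = 0.166) and in 11 of 12 sets. Without the 4 HFD arrays of trial 1 it was -0.54 (adjusted p = 0.343). With the sets of one strain, diet and trial as a block, the same tissue difference was called (adjusted p = 0.0140).

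Igf1r, the IGF1 receptor, was lower on HFD at its 2 brighter probes and lower in aorta than in muscle. At the brightest probe it read in aorta of WT 2.69, 1.95 and 1.47 on chow in trials 1, 2 and 3 and 2.02, 1.78 and 1.85 on HFD. In aorta of KO it read 3.26, 1.95 and 1.37 on chow and 2.39, 1.08 and 2.02 on HFD. The aortic values overlapped, and both pairs of trial 3 were higher on HFD. In muscle of WT it read 3.78, 3.71 and 2.89 on chow and 3.04, 1.72 and 1.98 on HFD. In muscle of KO it read 3.64, 2.95 and 2.99 on chow and 3.18, 2.24 and 2.42 on HFD. HFD was below chow in 6 of 6 muscle pairs, though the ranges of the diets overlapped. The mean difference over both tissues and strains was -0.58 (SE 0.18, 95% confidence interval -0.97 to -0.19, adjusted p = 0.0943), lower in 10 of 12 pairs. Without trial 1 it was -0.52 (adjusted p = 0.337). The mean log2 signal of 6 pericyte markers (among them Rgs5 and Pdgfrb) was also lower on HFD in 6 of 6 muscle pairs, by -1.06 to -0.34. It was higher on HFD in 6 of 6 aortic pairs. The part of these transcripts in the Igf1r difference was not tested.

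The second Igf1r probe was called over the same arrays. It was lower on HFD in 12 of 12 pairs, with a mean difference of -0.80 (95% confidence interval -1.07 to -0.53, adjusted p = 0.0173), which is 1.74-fold lower, and HFD and chow did not overlap in either tissue. Its difference was -0.87 without trial 1 (adjusted p = 0.155), -0.64 without trial 2 (0.198) and -0.89 without trial 3 (0.0626), so it too was called only with all 3 trials. On chow it lay between 1.56 and 2.27 in aorta and between 2.47 and 2.83 in muscle. On HFD it lay between 0.51 and 1.44 in aorta and between 1.30 and 2.13 in muscle. Another, far weaker probe passed the background limit on 17 of 24 arrays and gave 0.76 with a confidence interval of -0.14 to 1.66 (adjusted p = 0.299), with pairs from -2.15 to 4.25. Only HFD groups passed that limit on all their arrays, namely KO aorta and both strains in muscle. The weak probe entered the test through these groups alone, so its diet value cannot be set against the others. The intervals of the brightest and second probes overlapped. Aorta was below muscle by 0.89 at the brightest probe (SE 0.24, adjusted p = 0.00545) and by 0.79 at the second (adjusted p = 2.46e-04). At the brightest probe the tissue difference was -0.85 without trial 2 (adjusted p = 0.0749) and -0.81 without the 4 HFD arrays of trial 1 (adjusted p = 0.0212).

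**Figure D3:**
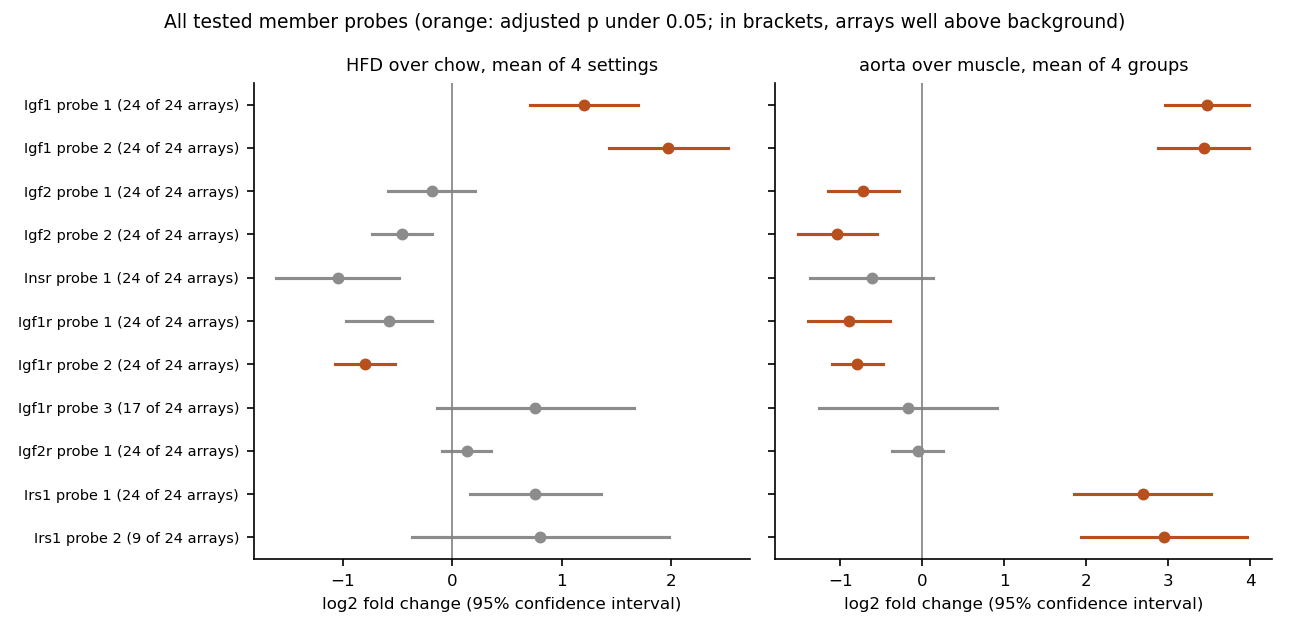
Log2 fold change with its 95% confidence interval (horizontal axis) for each of the 11 tested member probes (vertical axis, numbered from the brightest, with the number of arrays well above background), for HFD over chow on the left and aorta over muscle on the right. Orange marks an adjusted p under 0.05. The Igf1 probes lie on the same side of 0 in both panels. On the left the weakest Igf1r probe, at 0.76, lies across 0 from the first at -0.58 and the second at -0.80. That weakest Igf1r probe entered the test only through groups on HFD. The second Irs1 probe was not well above background on any muscle array, so its tissue value is only a bound there. It entered the test only through the HFD groups of aorta, so neither its place in the panels nor its colours are support for a difference.

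Igf2r, the scavenging receptor of IGF2, was the steadiest member. All 24 arrays lay between 3.66 and 4.79. Within aorta the medians were 4.26 on HFD and 3.95 on chow, and within muscle 4.24 and 4.25. HFD against chow over both tissues and strains gave 0.13 (95% confidence interval -0.10 to 0.36, adjusted p = 0.487) and 0.21 without trial 1 (adjusted p = 0.482), and aorta against muscle gave -0.06 (95% confidence interval -0.37 to 0.25, adjusted p = 0.772), with 6 of 12 sets in each direction. The tissue difference changed sign with quantile normalization, to 0.10. The intervals bound these differences and do not show that there was none.

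Irs1, the substrate that couples the insulin and IGF1 receptors to PI3 kinase, was higher in aorta and showed a diet difference that did not pass the threshold. In aorta of WT it read 4.66, 2.44 and 3.57 on chow in trials 1, 2 and 3 and 4.56, 4.59 and 3.09 on HFD. In aorta of KO it read 3.41, 2.86 and 2.04 on chow and 4.31, 4.79 and 3.23 on HFD. Only KO was higher on HFD in all 3 aortic pairs, and the aortic diet groups overlapped. In muscle of WT it read 1.29, 0.91 and 0.01 on chow and 2.81, 0.91 and 0.31 on HFD. In muscle of KO it read 1.74, -0.61 and 0.51 on chow and 2.64, 0.88 and -0.16 on HFD. The muscle arrays of trial 1 were the highest of their groups, and the highest of them, 2.81, lay above the lowest aortic array, 2.04. HFD against chow gave 0.76 (SE 0.27, 95% confidence interval 0.16 to 1.36, adjusted p = 0.136), higher in 9 of 12 pairs, and 0.74 without trial 1 (adjusted p = 0.371).

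Aorta was above muscle for Irs1 in 12 of 12 sets of one strain, diet and trial, by 1.52 to 3.91. The mean difference was 2.69 (SE 0.40, adjusted p = 2.31e-05), or 6.46-fold, and 2.98 without the 4 HFD arrays of trial 1 (adjusted p = 3.28e-05). The second Irs1 probe was well above background on 9 of 12 aortic and 0 of 12 muscle arrays, which bounds its difference at at least 2.13-fold. It entered the test only through the HFD groups of aorta, so no p-value is given for it. The fibroblast list ran beside this difference too, as given for Igf1, and on the plot against that list the trial 1 muscle arrays on HFD, with list means of 3.89 and 4.03, also had the highest Irs1 of the muscle arrays. These 2 arrays were the highest in muscle for the fibre markers too, with sums of 197 in KO and 171 in WT, and for the summed macrophage and leukocyte markers. The part of these transcripts in the Irs1 level was not tested.

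Across tissues, 4 of the 6 members were called: Igf1 and Irs1 higher in aorta, and Igf2 and Igf1r higher in muscle. Of all 27387 tested probes 46.1% were called in this comparison, 16.0% higher in aorta and 30.1% lower, with a median difference of -0.27 over all probes. At an unadjusted p under 0.05 the share was 53.4%. A share of 4 in 6 is not far from that background. How the sizes of the differences rank among all probes was not counted. Among the 6 members the largest were those of Igf1 and Irs1. The order of the 8 groups by mean was the same in kind for both: KO HFD aorta, WT HFD aorta, WT chow aorta and KO chow aorta, then WT HFD muscle and KO HFD muscle, then the chow muscle groups. Of the 7 steps between neighbouring groups in that order, only 2 separated groups without overlap for Igf1, from KO chow aorta to WT HFD muscle and from KO HFD muscle to KO chow muscle, and none did for the other 5 measured members. How many of all tested probes separate such steps was not counted, so this does not set Igf1 apart. Muscle fibre transcripts were in turn far higher in the muscle arrays, with 9 of 9 tested markers called and a median of -6.30, and endothelial markers were lower in aorta (9 of 10 called, median -1.02). The pericyte markers had list means of 1.65 to 2.61 on the aortic arrays and 2.24 to 3.77 on the muscle arrays. The part of all these transcripts in the higher muscle signal of Igf2 and Igf1r was not tested.

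**Figure D4:**
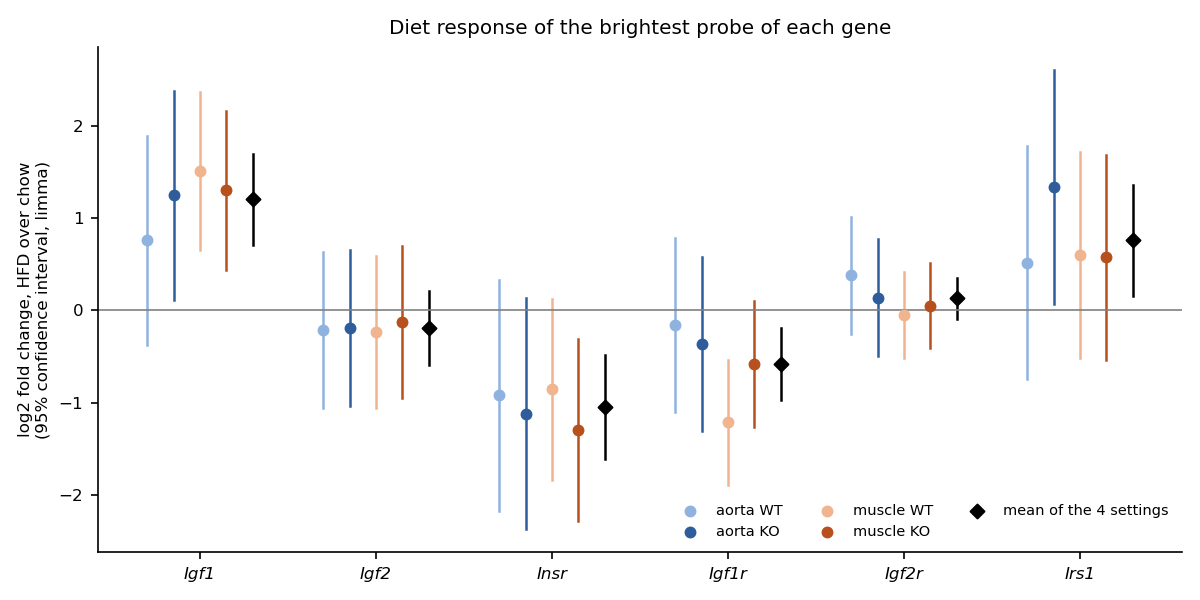
Log2 fold change of HFD over chow (vertical axis) at the brightest probe of each gene (horizontal axis), with 95% confidence intervals from limma, for aorta of WT and KO, muscle of WT and KO, and their mean (black diamonds). Igf1 lies above 0 and Insr below 0 in all 4 settings, with means of 1.21 and -1.05. The intervals of the 4 settings overlap for each gene.

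Whether KO changed the diet response was asked as the difference of the KO and WT responses. No member was called in aorta or in muscle, where 0% of tested probes were called in either tissue. At an unadjusted p under 0.05 limma gave 0 members in both tissues, and 2.62% of tested probes in aorta and 4.12% in muscle. The differences lay between -0.24 (Igf2r) and 0.82 (Irs1) in aorta and between -0.44 (Insr) and 0.63 (Igf1r) in muscle. Their 95% confidence intervals reached from -1.98 to 2.61 as the outermost limits over the members in aorta and from -1.84 to 1.59 in muscle. Without trial 1 the differences lay between -0.21 and 0.73 in aorta and between -0.42 and 0.81 in muscle, with no member called. The Irs1 value came from a response of 1.34 ± 0.53 in KO and 0.52 ± 1.42 in WT (SD, n = 3 pairs), a difference within the spread of WT. The Igf1r value in muscle came from -0.58 ± 0.12 in KO and -1.21 ± 0.68 in WT.

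The diet response did not differ past the threshold between the tissues either, with 0 of 6 members and 0% of tested probes called, and 0 members and 9.24% of tested probes at limma's unadjusted p under 0.05. The largest difference between responses, aorta minus muscle, was 0.63 for Igf1r (95% confidence interval -0.14 to 1.41, adjusted p = 0.632). For Igf1 it was -0.40 (95% confidence interval -1.39 to 0.59).

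The strains themselves, averaged over the diets, were compared within each tissue. No member was called in aorta, where 0.0116% of tested probes were, or in muscle, where 0% were. At limma's unadjusted p under 0.05 there were 0 members in both, and 3.39% of tested probes in aorta and 3.27% in muscle. The member differences of KO against WT lay between -0.38 (Irs1) and 0.22 (Igf2) in aorta and between -0.20 (Irs1) and 0.05 (Igf1r) in muscle. Their confidence intervals spanned -1.39 to 1.22 in aorta and -1.51 to 1.11 in muscle. KO was above WT in 5 of 12 pairs for Igf1 and Irs1, in 7 of 12 for Insr and Igf1r, in 6 of 12 for Igf2r and in 9 of 12 for Igf2. Without the 4 HFD arrays of trial 1, again no member was called in either tissue.

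Beyond the receptors and their substrate, 61 further genes of the pathway were read out in lists, of which 60 had a probe (Cblb had none) and 59 were tested. None was called in HFD against chow over both tissues and strains, with 25 of 59 above 0 and a median of -0.06, against a median of 0.00 over all tested probes. At an unadjusted p under 0.05 the count was 9 of 59, where 22.5% of all tested probes passed. Among the adaptors and inhibitors next to the receptor, the largest change was that of Enpp1, a membrane enzyme that inhibits the insulin receptor, at 1.26 (95% confidence interval 0.60 to 1.92, adjusted p = 0.0519). Socs1, an inducible inhibitor that targets IRS proteins, gave 0.64 (adjusted p = 0.0704). Elsewhere the largest were Tsc1 at -0.58 in the TSC and mTOR list, Ins2 at 0.34 among the related ligands, Sos1 at 0.29 in the RAS and ERK list and Foxo3 at -0.24 among the FOXO factors, with adjusted p of 0.190, 0.187, 0.472 and 0.576. No gene of the lists was called in the single settings, between the strains or in the differences of responses.

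Between the tissues 32 of the 59 genes were called, 6 higher and 26 lower in aorta, with a median of -0.34, where the median of all tested probes was -0.27. Of all tested probes 46.1% were called, 16.0% higher and 30.1% lower, so the share of the pathway genes called was near that background. Among the adaptors and inhibitors, 5 were called higher and 6 lower. The largest was Grb14, which binds the active insulin receptor and blocks its kinase, at 2.69 (95% confidence interval 2.14 to 3.24, adjusted p = 1.67e-07). Also higher in aorta were Socs1 at 1.46, Dok1 at 0.79, Shc1 at 0.49 and Socs3 at 0.39. Among those lower in aorta were the ubiquitin ligase Cbl at -1.15, Grb2 at -0.80, the caveolin Cav1 at -0.61, Gab1 at -0.60 and the phosphatase Ptpn1, which dephosphorylates the receptor, at -0.53.

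The PI3 kinase and AKT list had 1 gene called higher in aorta, the regulatory subunit Pik3r2 at 0.80, and 11 called lower. Among the lower ones were the catalytic subunits Pik3cb at -1.68 and Pik3ca at -0.56, the regulatory subunit Pik3r3 at -1.37, the AKT phosphatase Phlpp1 at -1.53, Tbc1d1 at -1.15, Inppl1 at -0.82, Trib3 at -0.68, Pdpk1 at -0.53, Akt1 at -0.51 and Gsk3a at -0.46. The kinase Akt1 and the phosphatase Phlpp1 that opposes it were thus called in the same direction. Beside the 30.1% of all tested probes called lower in aorta, in the RAS and ERK list 5 of 8 were called lower (among them Hras at -1.25, Mapk3 at -0.93 and Map2k2 at -0.41), and in the TSC and mTOR list 4 of 9 (Mtor at -0.72, Tsc2 at -0.61, Rictor at -0.57 and Rps6kb1 at -0.38). None of the 4 FOXO factors was called, the largest difference being that of Foxo4 at -0.74 (adjusted p = 0.123). Of the related ligands and receptor, Ins2 gave 0.16 (adjusted p = 0.476), and Ins1 was too dim to be tested.

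**Figure D5:**
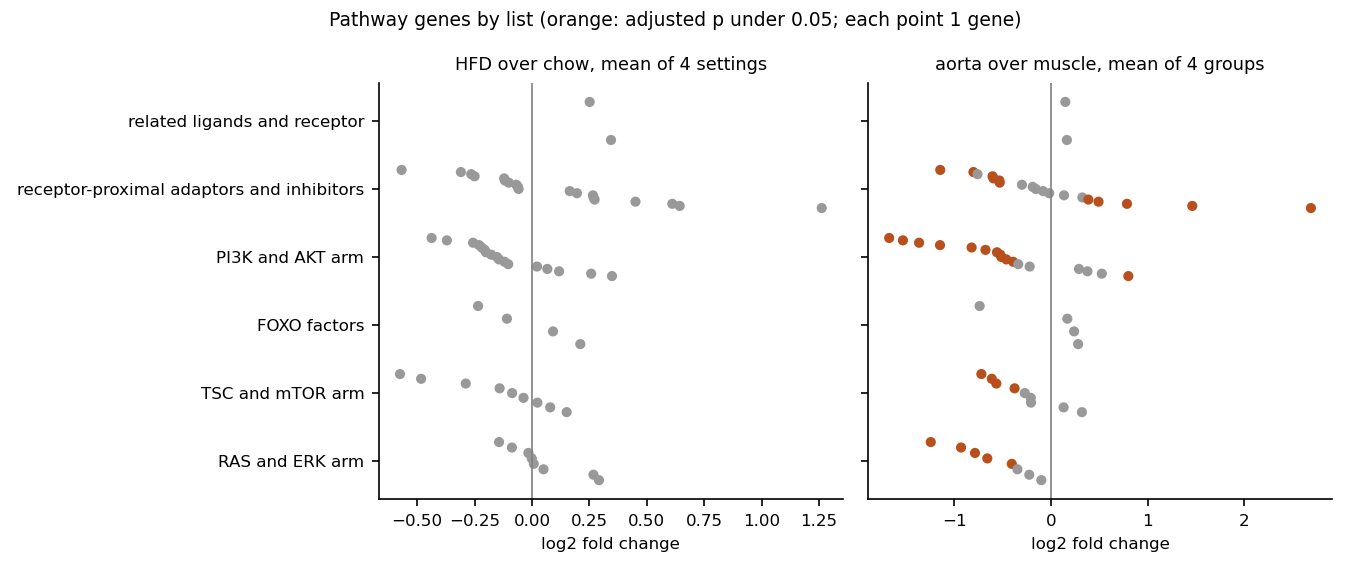
Log2 fold change of the 59 tested pathway genes (horizontal axis) by list (vertical axis), for HFD over chow on the left and aorta over muscle on the right, each point 1 gene at its brightest probe. Orange marks an adjusted p under 0.05. No point on the left is orange, where the largest is Enpp1 at 1.26, and 32 points on the right are, from Pik3cb at -1.68 to Grb14 at 2.69.

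Which genes followed each member over the arrays was described by Pearson's r of the log2 signals, over 11514 genes that were well above background on all 24 arrays. The 24 arrays share slides, trials and tissues, so these values order genes and test nothing. Over all 24 arrays Igf1 was followed most closely by Serf1, Siae and Adk (r = 0.98, 0.98 and 0.97) and Irs1 by Pdxk, Clmp and Kctd15 (0.98, 0.97 and 0.97). Since both members separate the tissues, these values rest largely on that step. Within the 12 muscle arrays the genes nearest to Igf1 were Ctsh, Mtss1 and Colgalt1 (0.96, 0.94 and 0.92), and within the 12 aortic arrays Igsf10, Sdr42e1 and Bicc1 (0.97 each). Igf1r was followed by Wipf2 both over all arrays (0.94) and within aorta (0.97). Insr was followed over all arrays by Gnaq, Bcar3 and Osbpl11 (0.91, 0.90 and 0.89), Igf2 by Vmn1r227, Socs2 and Olfr507 (0.90 each), and Igf2r by Togaram2, Klhl36 and Sema4d (0.88, 0.87 and 0.86).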

How the data were processed

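Sorted endothelial RNA was amplified, labelled with Cy3 and read on 24 single-colour Agilent mouse arrays, 3 for each of 8 groups. The arrays lay on 6 slides of 4, each with the 4 groups of 1 tissue and trial, and were scanned in 2 sessions, trial 1 in the first. Per the file headers, the processed intensity of each spot was background-subtracted and detrended by Feature Extraction 10.5.1.1, with no scaling between arrays, while the submitters' processing notes name version 9.1. A deposited log2 table was used as an alternative (per array it differs from these intensities, on the log2 scale, by a constant). The array design was built on mm9. Per the study's methods each array pooled 3 animals, per the series' design text 3 to 4 (the number per array is not given).

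Intensities were scaled here to the 75th percentile of the 43379 non-control spots of the same array, and the log2 values of the spots of a probe were averaged without outlier spots. Accessions gave 27198 probes a symbol from RefSeq (GRCm38.p6). The brightest probe stood for a gene, the others are given beside it. Probes well above background (at least 0.5 of their spots) on every array of at least 1 group were tested with limma (version 3.58.1, under R 4.3.3), 25865 in aorta, 25682 in muscle and 27387 over both, two-sided, with Benjamini-Hochberg adjustment. HFD and chow arrays of one tissue, strain and trial were a block, since the methods use the ratio of each experiment and the design text calls the experiments independent. After subtraction of group means such pairs correlated at 0.02 to 0.56, 10 of 12 above 0.1. In the diet fits over both tissues, the aortic and muscle pairs of one strain and trial counted as independent. Strains and tissues were compared between group means without a block, where all 12 pairs of each kind correlated above 0.1. Pathway genes were named where they passed the threshold or had the largest change of their list (a few such genes are not reported here), and genes like a member by the 3 highest r. Members and lists were chosen with earlier results of these data known. Fits were run on simulated arrays drawn as independent, with changes larger than any fitted for a member. Those runs do not cover smaller changes or the correlation between arrays of one trial. Alternatives were normexp (offset 50, on the median signals), quantile normalization, the deposited table, other filters, other blocks, a trial left out and the methods' t-test. A further one, without the 4 HFD arrays of trial 1, was chosen after seeing the data. Arrays carry no count depth, and their number limits the precision.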

Additional observations from a re-analysis of the deposited data

How the results depend on the processing

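Outside aorta against muscle and HFD against chow over both tissues and strains, every count of called members given was 0. In those comparisons at most 3 of all tested probes were called, so counts that stayed at 0 there say little. Of all the counts under the alternatives, 107 stayed within 1.5 times the value given, most of them at 0, and 8 did not. All 8 were in HFD against chow over both tissues and strains, where 1 member was called. That count was 2 with normexp, 2 with quantile normalization, 2 among probes well above background on every array, 0 with no filter on dim probes, 3 with slide as the replicate block and 0 to 0 with a trial left out. Igf1 had an adjusted p of 0.0532 with no filter, and Igf1r was called with slide as the block (adjusted p = 0.0484), as was Insr (0.0308). Over all probes this comparison gave 763 calls, 1356 with normexp, 1180 with quantile normalization, 203 with no filter, 1395 among probes well above background on every array, 1832 with slide as the block and 535 without a replicate block. Without the replicate block 1 member was called, and the pairing changed no other count of diet calls among the members. Between the tissues 5 members were called with the replicate block, and 3 to 4 with a trial left out. The shares of all tested probes called in these fits are not given here, so the counts do not set the members apart. Without a block and with all trials that share was 46.1%. The deposited table was not run between tissues, because its aortic and muscle columns are scaled to different values (medians of their 75th percentiles 12.1 and 11.9). The methods' t-test gave 2 members at an unadjusted p under 0.05 in aorta of KO (Igf1 and Irs1), where 1736 of 25865 tested probes passed. It gave 1 in muscle of WT (Insr) and 2 in muscle of KO (Igf1 and Igf1r), where 2118 and 1287 of 25682 passed. In muscle these were in part other members than limma gave. No member passed after Benjamini-Hochberg adjustment.

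Signs turned only in differences that were not called. With quantile normalization Igf2r on HFD in muscle of KO was -0.0445, Igf2r between the tissues 0.10 and the tissue difference of the Igf2 diet response 0.0447, which with normexp was 0.0015. Without the 4 HFD arrays of trial 1, chosen after seeing the data, KO against WT in aorta was -0.0157 for Insr, -0.0548 for Igf1r and 0.10 for Igf2r, and in muscle -0.14 for Igf1. With a trial left out, 26 results turned sign in at least 1 fit. HFD against chow in aorta of WT ranged from -0.42 to 0.10 for Igf1r and -0.29 to 1.02 for Irs1, in aorta of KO from -0.59 to 0.18 for Igf2, and in muscle of KO from -0.60 to 0.25 for Igf2 and -0.0111 to 0.14 for Igf2r. The diet response of KO minus WT in aorta ranged from -0.34 to 0.21 for Igf2, -0.46 to 0.18 for Insr and -0.45 to 0.0331 for Igf1r. In muscle it ranged from -0.42 to 0.19 for Igf1, -0.18 to 0.33 for Igf2, -1.11 to 0.0597 for Insr, -0.00612 to 0.24 for Igf2r and -0.79 to 0.44 for Irs1. The diet response of aorta minus muscle ranged from -0.35 to 0.20 for Igf2, -0.11 to 0.34 for Insr and -0.14 to 0.92 for Irs1. KO against WT in aorta ranged from -0.65 to 0.0794 for Igf1, -0.28 to 0.46 for Insr, -0.16 to 0.25 for Igf1r and -0.13 to 0.14 for Igf2r. In muscle it ranged from -0.20 to 0.47 for Igf1, -0.13 to 0.0555 for Igf2, -0.42 to 0.21 for Insr, -0.0644 to 0.13 for Igf1r, -0.19 to 0.00429 for Igf2r and -0.37 to 0.0796 for Irs1. The cause was not tested.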
